A study of Homo sapiens with 6 samples.

Results

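The genes described here are clock output and accessory factors, 10 in all, chosen by name from a list. They are the D-box factors DBP, TEF, HLF and NFIL3, the E-box repressors BHLHE40 and BHLHE41, the CLOCK relative NPAS2, the nuclear receptor RORA and the kinases CSNK1D and CSNK1E. All 10 were measured, among 17687 named genes in the series. The rule takes the probe set of highest mean over the 6 arrays where a gene has several. Each of the 10 genes had 1 probe set, so no measured value decided which signal was taken. The list itself was drawn up with earlier results of the 15EN and VC comparison known. The counts over the list are therefore a description, and each adjusted p is the gene's own value in a test run across all 17687 genes.

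SH-SY5Y is an established human neuroblastoma line of sympathetic lineage, here 1 line measured with whole-transcript arrays of 1 colour. All cells, the controls included, were induced with the differentiation agent atRA (a form of retinoic acid), with treatment over 96 h. The group labelled 15EN (3 arrays) received the bioactive compound at 15 µM, and the group labelled VC (3 arrays) was the vehicle control. The series title gives the compound studied as eurycomanone, from roots of Eurycoma longifolia, and the labels do not spell out 15EN. Replicates 1, 2 and 3 of each group carry passages 33, 34 and 35 in titles and source names, while every description gives passage 33. Beyond the passage, no label ties the arrays of a group to separate cultures. The p-values therefore speak only of array-to-array spread, and this spread may be technical. The comparison of 15EN with VC asks which transcripts differ with the compound.

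The circadian clock is a feedback loop of transcription that nearly every cell can run. CLOCK, or its relative NPAS2, pairs with BMAL1 and drives genes with E-box elements, among them the PER and CRY genes, whose proteins inhibit the pair. A second loop runs through nuclear receptors, where ROR proteins activate and REV-ERB proteins (NR1D1 and NR1D2) repress genes such as BMAL1 and NFIL3. Output passes through D-box elements, which DBP, TEF and HLF activate and NFIL3 represses. BHLHE40 and BHLHE41 compete at E-boxes as repressors, and the casein kinases CSNK1D and CSNK1E phosphorylate PER proteins and set the speed of the cycle.

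The values are log2 signals per probe set and array. Array medians over genes were 7.60 to 7.71, and the median gene differed by 0.01 between the groups on the log2 scale. The 15EN replicate 3 stood apart. It correlated at Pearson's r of 0.978 and 0.980 with the other 15EN arrays, which correlated at 0.991 with each other, and at 0.969 to 0.971 with the VC arrays, against 0.960 to 0.963 for 15EN replicates 1 and 2. Where leaving this array out changed a call among the 10 genes, or a count by over 1.5 times, both values are given. Changed calls of other genes are given only in part. A gene is called dim where it lies under the 90th percentile of the array's 612 negative controls (7.41 to 7.99), and dim does not mean undetected. Where a gene was dim on all arrays of a group, the size of its difference is uncertain. Of 12 measured markers of sympathetic neuroblastoma, 9 lay above it in all VC arrays, HAND2 and GATA3 among them, while TH was dim on every array. Of these 12 markers, 0 passed limma as higher and 7 as lower (0 and 8 at an unadjusted p under 0.05). The 7 were STMN2, DBH, CHGA (dim on all arrays), HAND1, ISL1, ELAVL4 and PHOX2A, with log2 differences of -1.72 to -0.88. HAND2 (0.09) and GATA3 (0.07) were the only 2 of the 12 with a difference above 0. The mean log2 signal of the 12 was 10.16 to 10.29 in 15EN and 10.98 to 11.27 in VC. Of 6 glial markers 0 lay above that percentile in all VC arrays and 0 passed limma, also at an unadjusted p under 0.05. Of 8 fibroblast markers 5 lay above it and 2 passed as lower (0 higher and 3 lower at an unadjusted limma p under 0.05). Of 12 markers of substrate-adherent neuroblastoma cells 9 lay above it, with 3 higher and 4 lower (3 and 5 unadjusted). Over all genes, 8115 of 17687 lay above it in all VC arrays, 12.3% passed as higher and 9.09% as lower. The part of such changes in the results below was not tested.

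RORA, TEF, HLF, NFIL3, BHLHE40 and CSNK1D were higher in 15EN than in VC. These 6 of 10 genes passed adjusted p 0.05 as higher, where 12.3% of all genes did, and 0 of 10 passed as lower, where 9.09% of all genes did (21.4% in either direction). At an unadjusted limma p under 0.05, 7 of 10 were higher and 0 lower. The same 6 had all 15EN arrays above all VC arrays, as had 19.7% of all genes, and 0 of 10 had all 15EN arrays below, as had 16.6%. The median log2 difference over the 10 genes was 1.21, between -0.24 for CSNK1E and 2.78 for RORA. Since the list was chosen with this comparison known, nothing about the list as a whole is read from these shares. A direction here is relative to the median gene. The hybridization controls were dimmer in 15EN, and when each array was scaled to them that median rose from 0.01 to 0.88. All 10 genes were then above 0, CSNK1E at 0.63 and NPAS2 at 0.82 included, which is below the median gene for both.

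**Figure D1:**
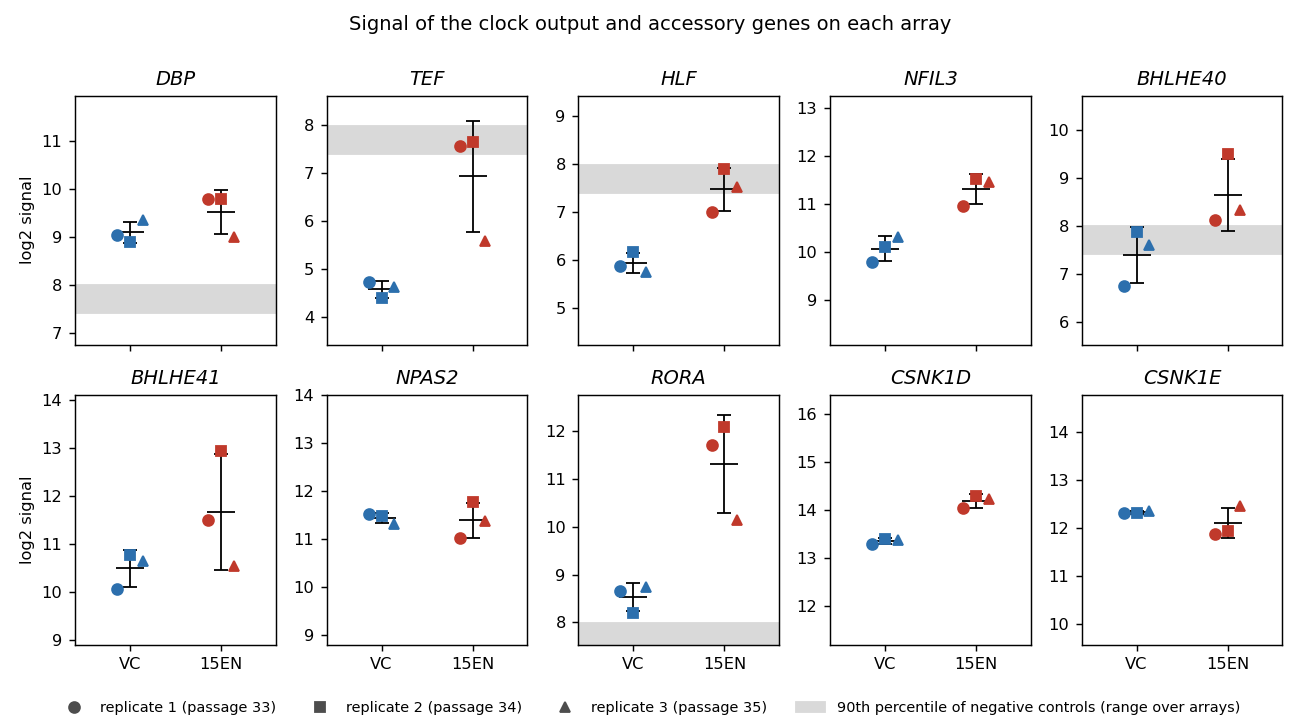
Log2 signal of the 10 genes on each array (points, with circles, squares and triangles for replicates 1, 2 and 3), with the group mean and SD (n = 3) in black. Every vertical axis spans the same number of log2 units, the grey band is the range over arrays of the negative controls' 90th percentile, and the TEF and HLF points of VC lie below it.

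DBP, TEF and HLF are the PAR bZIP activators, close relatives that bind the same D-box element. TEF read 7.56, 7.65 and 5.59 in 15EN (replicates 1, 2 and 3, the order used throughout) and 4.73, 4.39 and 4.63 in VC. All 15EN arrays lay above all VC arrays, and the third 15EN array was the lowest of its group by a wide gap. TEF rose by 2.35 ± 0.47 on the log2 scale (SE, adjusted p = 0.00566), a fold of 5.09 with a 95% interval of 2.48 to 10.4. Without 15EN replicate 3 the difference was 3.02 (adjusted p = 1.07e-05). In VC TEF lay below the negative controls' 90th percentile on every array, and in 15EN it lay above it on 2 arrays.

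HLF, known also as a factor of haematopoietic stem cells, read 7.01, 7.91 and 7.52 in 15EN and 5.88, 6.17 and 5.76 in VC. The groups did not overlap, and here the third 15EN array lay between the others. HLF rose by 1.54 ± 0.26 (adjusted p = 0.00274), a fold of 2.91 (95% interval 1.94 to 4.36). It was dim on all VC arrays and above the negative controls' 90th percentile on 2 of the 15EN arrays. DBP, the founding member of this family and a standard readout of E-box activity, read 9.78, 9.79 and 8.99 in 15EN and 9.03, 8.90 and 9.34 in VC. Its groups overlapped, because the third 15EN array lay within the VC range. The difference was 0.43 ± 0.27 (95% interval -0.16 to 1.02, adjusted p = 0.313), so a change of up to about 2.03-fold fits the interval. Without 15EN replicate 3 DBP passed, at 0.69 (adjusted p = 0.0307).

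NFIL3, also called E4BP4, is the bZIP repressor that occupies the D-box in place of the PAR factors. It read 10.96, 11.53 and 11.47 in 15EN and 9.80, 10.10 and 10.32 in VC. Every 15EN array was above every VC array, and the third 15EN array was close to the second. NFIL3 rose by 1.25 ± 0.24 (adjusted p = 0.00506), a fold of 2.37 (95% interval 1.63 to 3.44), and by 1.17 without 15EN replicate 3 (adjusted p = 0.00459). The activators TEF and HLF, both dim on all VC arrays, and the repressor of the same element were thus higher in 15EN. The activator DBP, above the negative controls' 90th percentile on every array, did not pass (0.43, adjusted p = 0.313).

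BHLHE40 (DEC1) and BHLHE41 (DEC2) are bHLH repressors that respond to many stimuli besides the clock. BHLHE40 read 8.11, 9.49 and 8.32 in 15EN and 6.74, 7.86 and 7.59 in VC. The lowest 15EN array exceeded the highest VC array by a small margin, and replicate 2 was the highest in each group. BHLHE40 rose by 1.25 ± 0.39 (adjusted p = 0.0455, or 0.00507 with the replicate number as a block). It did not pass without 15EN replicate 2 (0.82, adjusted p = 0.149), nor without VC replicate 1, 2 or 3 (adjusted p = 0.178, 0.0612 and 0.0985), and it was dim on 2 of the VC arrays. BHLHE41 read 11.51, 12.95 and 10.54 in 15EN and 10.06, 10.77 and 10.65 in VC. Replicate 2 was again the highest in each group, and the third 15EN array fell inside the VC range. The difference of 1.17 ± 0.50 missed the threshold (95% interval 0.07 to 2.28, adjusted p = 0.13). A fit blocked on the replicate number called it (adjusted p = 0.046), as did the fit without 15EN replicate 3, at 1.74 (adjusted p = 0.00525). Without 15EN replicate 2 it was 0.53 (adjusted p = 0.376).

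The promoters of TEF, BHLHE40 and BHLHE41 are shown because they hold the perfect E-box CACGTG, the element that CLOCK, NPAS2 and the BHLHE repressors bind. Each run is the 250 bases before an annotated start in RefSeq (GRCh38.p14), 5′ to 3′ on the gene's strand, with the E-box in capitals.
TEF, chr22:41367205-41367454, plus strand: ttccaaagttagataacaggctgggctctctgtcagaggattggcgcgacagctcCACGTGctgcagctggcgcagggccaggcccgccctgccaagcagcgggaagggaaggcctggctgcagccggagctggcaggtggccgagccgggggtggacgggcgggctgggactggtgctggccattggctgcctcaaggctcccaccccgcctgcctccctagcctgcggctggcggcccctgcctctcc
BHLHE40, chr3:4979187-4979436, plus strand: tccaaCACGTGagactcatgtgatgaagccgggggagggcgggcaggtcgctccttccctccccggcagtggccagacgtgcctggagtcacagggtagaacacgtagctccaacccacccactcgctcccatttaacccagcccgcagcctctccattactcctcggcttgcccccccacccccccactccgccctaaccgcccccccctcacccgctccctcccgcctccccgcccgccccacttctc
BHLHE41, chr12:26125038-26125287, minus strand: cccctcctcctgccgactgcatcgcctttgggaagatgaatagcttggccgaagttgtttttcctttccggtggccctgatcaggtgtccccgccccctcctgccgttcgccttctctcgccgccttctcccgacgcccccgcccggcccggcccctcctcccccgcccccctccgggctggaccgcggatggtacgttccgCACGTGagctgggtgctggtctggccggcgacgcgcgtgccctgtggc
The E-box ended 189 bases before the start in TEF, 239 in BHLHE40 and 42 in BHLHE41. Another annotated start of TEF had an E-box 187 bases before it.

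The promoter table held 9 of the 10 genes, CSNK1D being the exception. The E-box (CACGTG, which reads the same on both strands) matched in 3 of these 9 genes, and in 9.68% of 14250 measured genes with a promoter. The D-box (TTANGTAA or its reverse complement) matched in 0 of 9, and in 2.02% of those genes. The core of the ROR element (AGGTCA, both strands) matched in 2 of 9, NFIL3 and CSNK1E, and in 13.4% of those genes. None of these matches overlapped another. A D-box matched in 3 of 12 core clock genes, namely PER3 and NR1D2, which rose (below), and RORB, which did not pass. The stretch of 60 bases from PER3, with the D-box in capitals, shows the element that TEF, HLF, DBP and NFIL3 recognize.
PER3, chr1:7784088-7784147, plus strand: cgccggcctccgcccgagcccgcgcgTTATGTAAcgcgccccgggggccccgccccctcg
A match is a description of these letters, and binding was not measured.

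RORA, the nuclear receptor that activates BMAL1 and other genes through ROR elements, showed the largest difference of the 10. It read 11.70, 12.08 and 10.14 in 15EN and 8.66, 8.20 and 8.73 in VC. Every 15EN array was well above every VC array, with the third the nearest to them. RORA rose by 2.78 ± 0.43 (adjusted p = 0.00165), a fold of 6.86 (95% interval 3.54 to 13.3), which ranked 107 among 17687 genes by size of difference. Without 15EN replicate 3 the difference was 3.36 (adjusted p = 1.12e-05). RORA was above the negative controls' 90th percentile on all 6 arrays. The receptor gene RORB, a relative of RORA with a role in retina and brain, differed by 0.79 ± 0.30 (adjusted p = 0.096) and was called higher once the block was fitted (adjusted p = 0.0377).

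NPAS2 is the bHLH-PAS protein that can stand in for CLOCK beside BMAL1, and it is best known from forebrain. It read 11.03, 11.77 and 11.37 in 15EN and 11.52, 11.48 and 11.31 in VC. The groups overlapped, with the highest and the lowest of the 6 values both in 15EN. Its difference of -0.05 ± 0.24 (95% interval -0.57 to 0.48, adjusted p = 0.928) leaves room for a fold between 0.672 and 1.40. CLOCK itself differed by 0.32 ± 0.30 (adjusted p = 0.533), so neither of the E-box activators that pair with BMAL1 passed, whereas BMAL1 rose by 1.20 ± 0.21 (adjusted p = 0.00304). CLOCK passed without 15EN replicate 3, at 0.65 (adjusted p = 0.0407), and NPAS2 did not (-0.04, adjusted p = 0.932).

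CSNK1D and CSNK1E are closely related kinases with overlapping action on PER proteins. CSNK1D read 14.03, 14.29 and 14.23 in 15EN and 13.29, 13.40 and 13.37 in VC, with the smallest within-group SD summed over both groups among the genes that passed. The groups were separate by more than the range within either. CSNK1D rose by 0.83 ± 0.20 (adjusted p = 0.0146), a fold of 1.77 (95% interval 1.30 to 2.41). Without 15EN replicate 2 or any of VC replicates 1, 2 and 3, in a smaller fit, the adjusted p was 0.0506, 0.0582, 0.0539 and 0.0529, at differences of 0.77 to 0.85. CSNK1E read 11.89, 11.95 and 12.46 in 15EN and 12.32, 12.31 and 12.37 in VC. The first and second 15EN arrays lay below all VC arrays and the third above them. Its difference was -0.24 ± 0.22 (95% interval -0.73 to 0.26, adjusted p = 0.536).

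Whether relatives differed from each other was asked for 7 pairs by the difference between their log2 differences. The exact permutation test (two-sided, 3 against 3) cannot go below p = 0.1, so none of the pairs could pass 0.05. CSNK1D exceeded CSNK1E by 1.06 ± 0.17 (SE, exact p = 0.1, adjusted over the pairs 0.233), by 1.12, 1.31 and 0.75 on the 15EN arrays, with no overlap between the groups. TEF exceeded DBP by 1.92 ± 0.43 and RORA exceeded RORB by 1.99 ± 0.65, both also without overlap and at the same exact p = 0.1 (adjusted 0.233). The pairs HLF and DBP (1.11 ± 0.46), TEF and HLF (0.81 ± 0.76), BHLHE40 and BHLHE41 (0.07 ± 0.42), and NPAS2 and CLOCK (-0.36 ± 0.40) overlapped between the groups, with exact p of 0.2 to 1 (adjusted 0.35 to 1). TEF and HLF changed order between arrays, since TEF was ahead by 1.91 and 1.09 in 15EN replicates 1 and 2 and HLF was ahead in replicate 3.

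**Figure D2:**
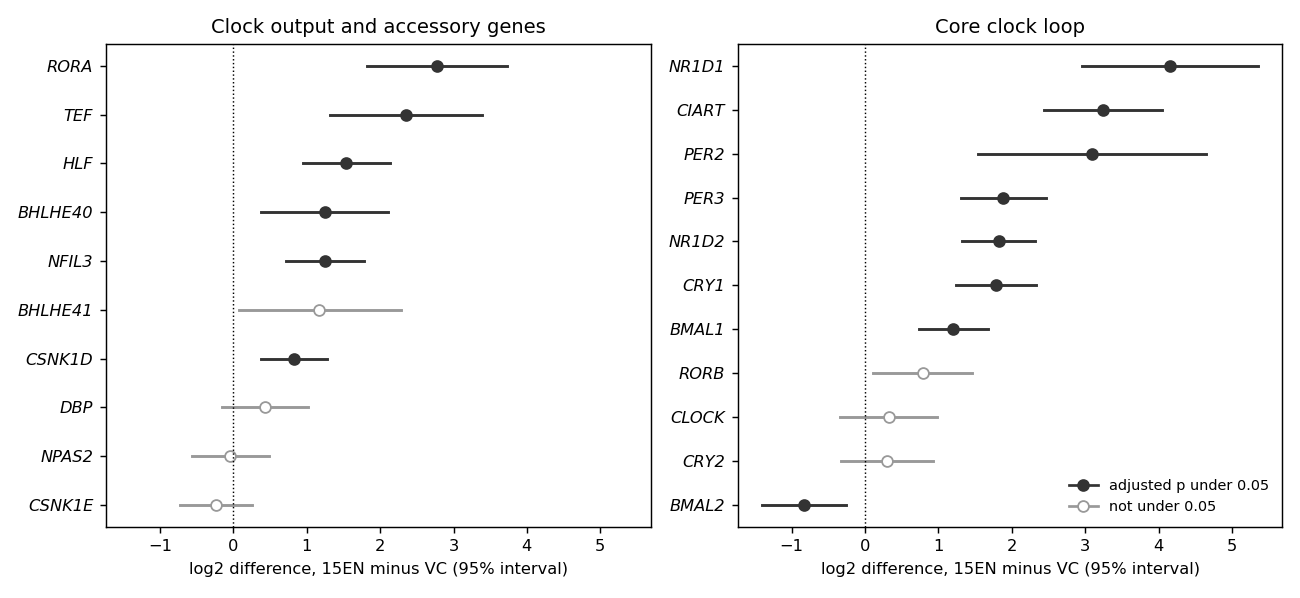
Log2 differences of 15EN minus VC with 95% intervals from limma, for the 10 clock output and accessory genes (left) and 11 core clock genes (right). Filled points passed adjusted p 0.05, and RORA and TEF lie furthest to the right on the left side.

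The 10 genes fell into different patterns across the 15EN arrays, all relative to the VC mean of the same gene. RORA was higher by 3.17, 3.55 and 1.61 and TEF by 2.97, 3.07 and 1.00. In replicate 3 these are 48.0% and 33.2% of the mean of the other arrays. BHLHE41 was at 1.02, 2.46 and 0.04 and DBP at 0.69, 0.70 and -0.10, so in replicate 3 both were at the VC level. NFIL3 (0.88, 1.45 and 1.40), HLF (1.07, 1.98 and 1.58) and CSNK1D (0.67, 0.93 and 0.87) were as high in replicate 3 as in the mean of replicates 1 and 2, at 120%, 104% and 109% of it. BHLHE40 was intermediate at 66.1%. Over all 2179 genes that passed as higher, the median of this share was 76.3%, and 73.8% of them were nearer to VC in replicate 3. Among the 6 genes here that passed, 3 were nearer. RORA and TEF thus lay below the median share and NFIL3, HLF and CSNK1D above it. The test of this difference between genes was not made, since it would rest on 1 array.

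**Figure D3:**
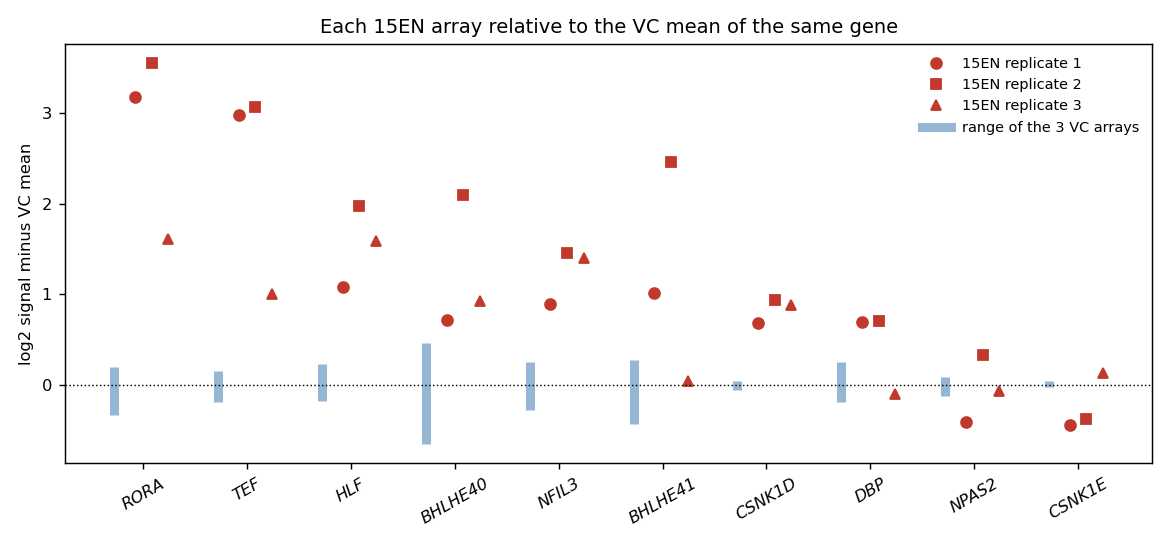
Log2 signal of each 15EN array (red points) minus the mean of the 3 VC arrays of the same gene, with the range of the VC arrays as a blue bar. The triangles (replicate 3) drop towards or into the VC range for RORA, TEF, BHLHE41 and DBP, and stay level with the other arrays for HLF, NFIL3 and CSNK1D.

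Other genes of the pathway were counted in lists written with earlier results known, so nothing about a list as a whole is read from the counts. Beside each count stand the shares over all genes, 12.3% passing as higher and 9.09% as lower. In the core clock loop, 7 of 11 measured genes passed as higher and 1 as lower, with a median log2 difference of 1.78, beside 0.01 over all genes. The replicate block added RORB, for 8 higher, and leaving out 15EN replicate 3 added CLOCK and CRY2 (0.61, adjusted p = 0.0481, dim on all arrays), for 9. NR1D1 and NR1D2, the REV-ERB repressors that oppose RORA, rose by 4.15 ± 0.54 and 1.82 ± 0.22 (adjusted p = 0.000692 and 0.000528), and by 4.87 and 1.95 without 15EN replicate 3 (adjusted p = 8.96e-06 and 9.63e-05). CIART, a repressor of the CLOCK and BMAL1 pair, rose by 3.24 ± 0.36 (adjusted p = 0.000359), and CRY1, which inhibits that pair, by 1.78 ± 0.25 (adjusted p = 0.000939). Both were dim on all VC arrays and above the negative controls' 90th percentile on all 15EN arrays. Their differences were 3.67 and 1.81 without 15EN replicate 3 (adjusted p = 1.09e-05 and 0.000445). BMAL2, a relative of BMAL1, fell by 0.83 ± 0.26 (adjusted p = 0.0431). With 15EN replicate 1 or 2 left out, or VC replicate 2 or 3, its adjusted p was 0.0799 to 0.173, with a trended robust prior it was 0.0539, and the difference was at 0.04 after scaling to the hybridization controls.

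Genes known as outputs of E-box and D-box elements had 7 higher and 1 lower of 13 measured, beside 12.3% and 9.09% of all genes. Of the 7, 5 were also core clock genes. PER1 was not measured. PER2, 1 of these 5, rose by 3.09 ± 0.70 (adjusted p = 0.0107) but was dim on all VC arrays. Without VC replicate 2 or 3 it did not pass (adjusted p = 0.054 and 0.0514). Outside the core clock genes, NAMPT, the enzyme that makes an NAD precursor, rose by 1.34 ± 0.27 (adjusted p = 0.00583). ALAS1, the first enzyme of heme synthesis, rose by 0.88 ± 0.24 (adjusted p = 0.0235). Leaving out replicate 1 or 2 of either group ended the call of ALAS1 (adjusted p = 0.0537 to 0.1). PER3, whose D-box is printed above, rose by 1.88 ± 0.26 (adjusted p = 0.000991). The cell cycle kinase WEE1, an E-box output in liver, fell by 1.23 ± 0.24 (adjusted p = 0.00488) but scaled to the hybridization controls it was at -0.37 and did not pass. Among known ROR and REV-ERB targets 3 of 9 passed, all higher, namely BMAL1, CRY1 and NR1D1. Without 15EN replicate 3 CLOCK passed too, and the cytokine gene IL17A, dim on all arrays, as lower (-0.75, adjusted p = 0.0265). The metabolic target CPT1A differed by 0.40 ± 0.29 (adjusted p = 0.398). G6PC1, ELOVL3 and FGF21 were dim on all 6 arrays, so their differences, which did not pass, say little.

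Among other kinases, phosphatases and ubiquitin ligases that act on clock proteins, 2 of 15 passed limma as higher, where 12.3% of all genes did, and 0 as lower (4 and 1 at an unadjusted p under 0.05), with a median of 0.17. Without 15EN replicate 3 the counts were 4 higher and 2 lower, and with the replicate block 1 and 0. PRKAA2, a catalytic subunit of AMP kinase, rose by 1.96 ± 0.24 (adjusted p = 0.000533). PPP2CA, a phosphatase subunit, rose by 0.67 ± 0.21 (adjusted p = 0.0416), but missed the threshold with the replicate block (0.0504), after quantile normalization (0.0652), after removal of a brightness trend (0.0662) and in 5 of 6 fits that left out 1 array. In the rest of the casein kinase 1 family, CSNK1G2, dim on all 15EN arrays, fell by 1.95 ± 0.30 (adjusted p = 0.00147), CSNK1A1 differed by 0.56 ± 0.23 (adjusted p = 0.112) and CSNK1A1L, dim on all arrays, by -0.07 ± 0.22. Of the 6 bZIP genes of the C/EBP family, DDIT3 alone passed (2.78 ± 0.37, adjusted p = 0.00083), a stress-induced factor also known as CHOP. It was dim on all VC arrays. CEBPG also passed without 15EN replicate 3, at 0.79 (adjusted p = 0.0262, against 0.0582 with all arrays). Of 11 other bHLH-PAS genes 0 passed by limma (0 higher and 1 lower at an unadjusted p under 0.05), and their median was 0.07. Leaving out 15EN replicate 3 gave 3 higher, namely CLOCK, AHR (1.34, adjusted p = 0.0017) and NPAS3 (0.77, adjusted p = 0.0294), the last 2 dim on all 6 arrays. Their values with all arrays were 0.84 (adjusted p = 0.173) for AHR and 0.52 (adjusted p = 0.231) for NPAS3.

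The genes with the most similar profile were named for the 3 genes of largest difference, by root mean square distance over the 6 arrays of log2 signals relative to the VC mean. For RORA they were SIPA1L2 (0.23), TMEM45B (0.26) and TXNIP (0.27), and for TEF they were TSPYL2 (0.18), FOXI3 (0.21) and H4C15 (0.25), the last being a histone gene with near-identical copies. For HLF they were USP44 (0.13), JMY (0.15) and SLC43A2 (0.16). Within the list, RORA and TEF were each other's nearest (0.34), and NFIL3 was nearest to HLF (0.32).

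**Figure D4:**
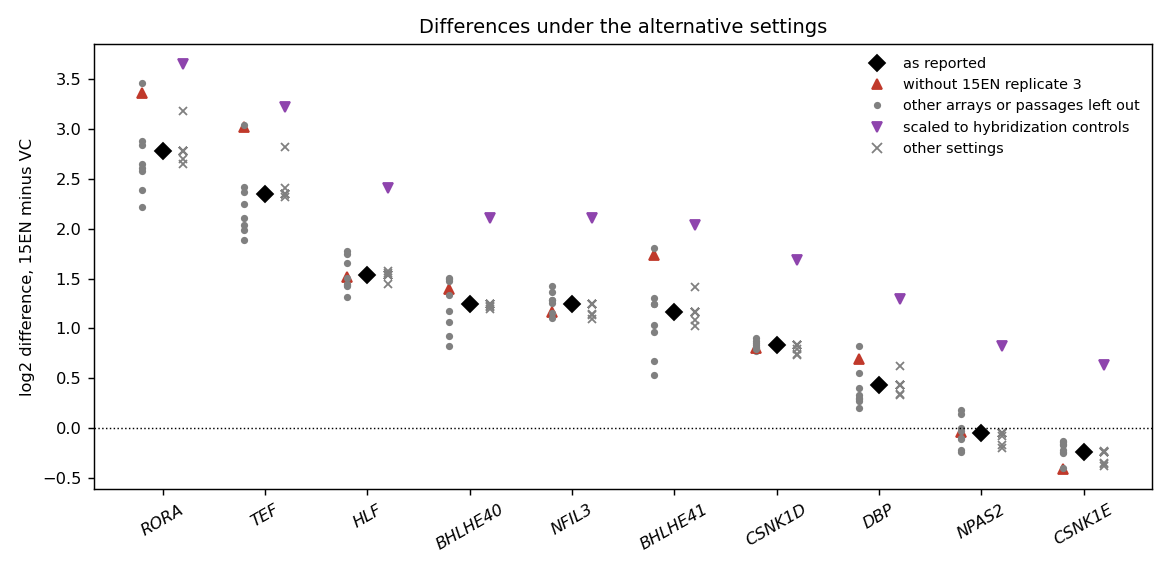
Log2 difference of each of the 10 genes as reported (black diamonds), with arrays left out (left of it) and under other settings (right of it). Scaling to the hybridization controls moves every gene up by a like amount, and leaving out 15EN replicate 3 moves RORA, TEF, BHLHE41 and DBP up.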

How the data were processed

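The deposited values are log2 signals of probe sets on each array, made by the authors with the Transcriptome Analysis Console per the submitters' processing notes. Neither its version, summarization and normalization nor the build used is stated in these sources. The log2 scale was judged from the values (2.20 to 18.8). Labelled cDNA was made from 100 ng of total RNA, per the labels' protocols. The platform annotation names 1 gene for 17709 of 21448 gene probe sets, several for 0 and none for 3739, and 22 were set aside because another probe set of the gene was brighter. Dim probe sets were kept. Precision is limited by the number of arrays.

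The comparison used lmFit and eBayes of limma 3.58.1 (R 4.3.3) with a term for group alone, two-sided p-values, and Benjamini-Hochberg adjustment over 17687 genes at a threshold of 0.05. Errors beside differences are standard errors of that fit, except between relatives, where they come from the SDs of the 3 arrays per group. The fit was tested on simulated data, with an outcome that is not given here. Nothing about the behaviour of the fit on these arrays is read from that test. The genes and lists were chosen with earlier results of these data known. All 10 genes are named, and of each list up to 4 genes per direction that passed, by adjusted p. CLOCK, RORB, CSNK1A1, CSNK1A1L, NAMPT, ALAS1, the 4 metabolic targets and the markers are named beyond that rule as relatives or examples. PER2, CRY2, IL17A, CEBPG, AHR and NPAS3 are named after their values were seen.

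Across genes, the deviations of same-numbered arrays from their group means correlated at 0.229, 0.162 and 0.133, and those of differently numbered arrays at -0.138 to -0.0165. The deviations of a group sum to 0, so the negative values follow in part from the positive ones. Since titles and source names also give each number its own passage, the numbers were taken to pair the arrays. The reported fit and the exact tests do not use this pairing, and the replicate number as a block was an alternative. The others were quantile normalization, median centring, scaling to 4 hybridization controls, removal of a brightness trend, leaving out the lowest tercile of genes by mean signal, array weights, a trended robust prior, no moderation, averaging over probe sets of 1 gene, and leaving out arrays or passages.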

Additional observations from a re-analysis of the deposited data

How the results depend on the processing

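RORA kept its direction under 19 alternatives and its call in 18 of them, with differences of 2.22 to 3.65, and HLF likewise, at 1.32 to 2.41. NFIL3 kept its call in 17 of 19, TEF in 15 of 18, CSNK1D in 13 of 19 and BHLHE40 in 11 of 19. Without moderation of the variance, RORA (adjusted p = 0.0778), HLF (0.0585), NFIL3 (0.059), TEF (0.123) and BHLHE40 (0.246) did not pass. The cause was not tested. The count of the 10 genes that passed as higher was 6 as reported, 7 with the replicate block, 9 after scaling to the hybridization controls, 1 (CSNK1D) without moderation, and 4 to 8 without 1 array, and the count as lower was 0 throughout. In the fits with 2 arrays per group it was 3, 2 and 7 without replicates 1, 2 and 3. NPAS2, close to 0, changed sign after scaling to the hybridization controls (0.82), without 15EN replicate 1 (0.14, the highest of -0.24 to 0.14 over the fits that left out 1 array) and without both arrays of replicate 1 (0.18). CSNK1E (0.63) and BMAL2 (0.04) changed sign after that scaling, which adds a constant to every gene. Over all genes, 2179 passed as higher and 1608 as lower (57.5% higher), against 12150 and 437 (96.5%) after that scaling, 789 and 637 without moderation, 1301 to 3227 and 970 to 2240 without 1 array, and 641 and 608, 526 and 495, or 2653 and 1845 without both arrays of replicate 1, 2 or 3. The replicate block changed no call of the 10 genes other than BHLHE41. Dimness limits TEF, HLF, CIART, CRY1, PER2 and DDIT3 in VC and CSNK1G2 in 15EN, where all 3 arrays were under the negative controls' 90th percentile. TEF was among the genes left out with the dimmest.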

Other observations

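Genes of opposite known action were higher in the same arrays. RORA, an activator at ROR elements, had every 15EN array above every VC array. So had the REV-ERB genes NR1D1 and NR1D2, repressors at the same elements. BMAL1, NFIL3 and CRY1, known targets of both, had this too but are named because they were higher. NFIL3 was not among the 9 measured genes listed as ROR and REV-ERB targets. Of these 9, 3 (BMAL1, CRY1 and NR1D1) had all 15EN arrays above all VC arrays. The 1 gene with all below was IL17A, dim on all arrays. Over all genes these shares were 19.7% and 16.6%. NR1D1 read 13.22, 14.45 and 11.67 in 15EN and 9.07, 8.98 and 8.83 in VC. In 15EN replicate 3 its distance from the VC mean was 55.7% of that in replicates 1 and 2, as with RORA (48.0%), and that of NR1D2 was 78.9%, close to the median of 76.3% over all genes that passed as higher, while BMAL1 (120%), NFIL3 (120%) and CRY1 (95.4%) were about as high there as in the other arrays. These shares rest on 1 array and have no test.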
